A study of Mus musculus with 32 samples.

Results

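Anterior hindlimb buds of mouse embryos that overexpressed Etv2 were compared with those of control embryos by ATAC-seq, an assay in which a transposase cuts accessible chromatin. These were 7 of the 32 libraries of the series, chosen from the labels as the libraries of the overexpression experiment whose embryo number ends in A, for anterior: 3 Etv2_OE libraries (embryos 7, 9 and 10) and 4 WT_Control libraries (embryos 1, 2, 3 and 4). The Etv2_OE embryos carried HoxB6-Cre, an iHA-Etv2 transgene and a ROSA26-STOP-rtTA-IRES-EGFP allele, and all embryos received doxycycline, so that HA-tagged ETV2 was made only in the HoxB6-Cre lineage and in a mosaic of cells. Per the study's methods, controls were littermates that lacked a part of this system, and the labels do not give the genotype or the sex of each control. The labels place all 7 libraries at E10.5, whereas the methods describe a later harvest for doxycycline-treated embryos. The labels of every sample, and the methods for ATAC-seq, refer to a sort that keeps EYFP-positive cells and removes those positive for CD31, Tie2 or CD45, which mark endothelium and blood. The alleles named for these embryos include no EYFP, so how the sort was applied to them cannot be told from these sources. A deposited file lists the summits of accessible regions in 1 library with a -log10 q value, and the number of sequenced reads is unknown. Values below are therefore ranks: rank 1 is the strongest summit of a list, and a rank score runs from 1 for the top summit to 0 for a position with no summit among the 30000 highest-ranked.

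ETV2 is an ETS-family transcription factor that binds the core GGAA and drives the development of endothelium and blood, where Tal1 and the VEGF receptor gene Kdr are among its known targets. Shh, the secreted signal that patterns the limb from posterior to anterior, is switched on in the posterior limb bud through the ZRS, a distant enhancer in an intron of Lmbr1. Anterior limb mesenchyme, marked by the homeobox gene Prrx1, is normally without Shh.

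Some regions described below are shown first, as 200 bases around a summit on the plus strand of mm10, read from the RefSeq GRCm38.p6 assembly. All were chosen after their values were seen. Capitals mark the ETV2 word, that is, AGGAAGT or AGGAAAT with A, C or G before it, on either strand. Neighbouring capitals can hold overlapping matches. Genes are the nearest protein-coding start. The Stim2 and Cxcl12 regions were the only intervals that were both called higher in Etv2_OE and held the word. The word was also in 2 of the 14 intervals called lower, nearest Smim19 and Mid1, which are not shown.

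Stim2, chr5:54747120-54747319: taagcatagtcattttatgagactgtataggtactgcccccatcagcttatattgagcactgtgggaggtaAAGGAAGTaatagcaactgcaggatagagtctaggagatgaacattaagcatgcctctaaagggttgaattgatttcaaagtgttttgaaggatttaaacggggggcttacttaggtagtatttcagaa
Cxcl12, chr6:117479749-117479948: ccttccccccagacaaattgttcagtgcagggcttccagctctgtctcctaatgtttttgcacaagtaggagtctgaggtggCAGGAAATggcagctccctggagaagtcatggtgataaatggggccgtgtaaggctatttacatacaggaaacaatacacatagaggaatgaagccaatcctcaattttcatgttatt

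The Cmip region (higher) and the Ripk4 region (lower) were the only called intervals with no summit of the other group within 1 kb.

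Cmip, chr8:117224663-117224862: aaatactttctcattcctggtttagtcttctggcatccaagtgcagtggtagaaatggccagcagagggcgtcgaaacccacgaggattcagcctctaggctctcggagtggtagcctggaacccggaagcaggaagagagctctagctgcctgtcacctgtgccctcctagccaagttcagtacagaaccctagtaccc
Ripk4, chr16:97778853-97779052: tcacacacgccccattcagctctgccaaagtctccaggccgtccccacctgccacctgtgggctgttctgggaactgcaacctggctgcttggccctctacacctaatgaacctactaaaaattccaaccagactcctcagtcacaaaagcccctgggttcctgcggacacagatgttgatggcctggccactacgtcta

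The Src and Sh3bgrl regions held the word, were listed in all 3 Etv2_OE libraries, and had no control summit within 1 kb.

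Src, chr2:157474328-157474527: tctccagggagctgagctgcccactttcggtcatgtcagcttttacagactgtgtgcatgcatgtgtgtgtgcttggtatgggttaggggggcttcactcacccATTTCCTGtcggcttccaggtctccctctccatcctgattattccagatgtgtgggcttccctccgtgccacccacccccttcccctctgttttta
Sh3bgrl, chrX:109074011-109074210: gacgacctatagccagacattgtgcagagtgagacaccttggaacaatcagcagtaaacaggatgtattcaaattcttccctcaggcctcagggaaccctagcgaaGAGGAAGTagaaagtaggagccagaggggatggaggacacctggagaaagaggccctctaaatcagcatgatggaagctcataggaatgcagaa

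The Tal1 and Dusp6 regions held the word, lay nearest a gene of the pathway lists, and were listed among the 30000 highest-ranked summits by the 3 Etv2_OE libraries and, among the controls, by embryo 1 alone.

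Tal1, chr4:115052651-115052850: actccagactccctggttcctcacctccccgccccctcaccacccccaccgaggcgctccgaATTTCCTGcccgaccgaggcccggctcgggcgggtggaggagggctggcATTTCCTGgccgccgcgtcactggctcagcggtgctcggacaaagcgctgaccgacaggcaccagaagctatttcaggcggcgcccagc
Dusp6, chr10:99229438-99229637: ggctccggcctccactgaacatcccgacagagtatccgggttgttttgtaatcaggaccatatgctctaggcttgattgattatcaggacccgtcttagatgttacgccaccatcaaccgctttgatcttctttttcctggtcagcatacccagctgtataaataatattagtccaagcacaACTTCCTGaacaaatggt

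Before any comparison, the library labelled WT_Control embryo 1 stood apart from the other controls. It listed 17 summits on chromosome Y, against 56, 54 and 55 for control embryos 2, 3 and 4 and 16, 15 and 16 for Etv2_OE embryos 7, 9 and 10. Its posterior library listed 18 summits there, against 53 to 67 for the posterior libraries of control embryos 2 to 4 and 18 to 21 for Etv2_OE. The count of Y summits therefore could not be told apart from the group once embryo 1 was left out. Control embryo 1 also sat with Etv2_OE on the ETV2 word, as given below. The word shares, the calls, the presence sets and the medians of the gene lists are therefore given with this library and without it, and its genotype was not tested. The Etv2_OE lists were shorter, with 37164, 32670 and 37997 summits for embryos 7, 9 and 10 against 40949, 43059, 44352 and 45765 for control embryos 1 to 4. The groups did not overlap in list length (means of 35944 ± 2866 (SD, n = 3) and 43531 ± 2046 (SD, n = 4); exact permutation test, two-sided, p = 0.0571, the smallest that 3 against 4 libraries allow). The share of intervals in common between a pair of lists was 0.543 to 0.584 for the 12 pairs between groups, 0.548 to 0.551 for the 3 pairs of Etv2_OE and 0.561 to 0.597 for the 6 pairs of controls. On this measure control embryo 1 did not sit with Etv2_OE. Its share was 0.567, 0.556 and 0.574 with Etv2_OE embryos 7, 9 and 10. With control embryos 2, 3 and 4 it was 0.561, 0.568 and 0.577.

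Limb mesenchyme promoters were widely accessible in both groups. A summit within 500 bp of a start was listed for 14 to 18 of the 23 mesenchyme genes in Etv2_OE and for 16 to 19 in controls. Prrx1 was listed in all 7 libraries, at ranks 25410, 12680 and 34561 in Etv2_OE embryos 7, 9 and 10 and at ranks 25059, 12332, 24115 and 17684 in control embryos 1 to 4. The hindlimb gene Tbx4 was listed in all but Etv2_OE embryo 9 and the hindlimb gene Pitx1 in all but Etv2_OE embryo 7, while the forelimb gene Tbx5 was listed in none. Markers of other cells were counted in the same way: 12 to 15 of 41 endothelial promoters in Etv2_OE against 15 to 16 in controls, 4 to 6 against 5 to 6 of 15 blood promoters, and 1 to 2 against 1 to 3 of 15 ectodermal promoters. These counts are from whole lists, which are longer in controls. Among the 30000 highest-ranked summits, mesenchyme promoters numbered 14 to 15 in Etv2_OE against 12 to 16 in controls, and endothelial ones 9 to 12 against 10 to 13. The ranges overlapped in each list either way, and a listed promoter does not measure expression. The sort named in the labels would lower the share of endothelial and blood cells, and its part in these counts was not tested. In a bulk sample, more cells of a type and more accessibility per cell cannot be told apart.

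The first question was whether regions holding the binding word of ETV2 were more often accessible in Etv2_OE. Among the 30000 highest-ranked summits, the word lay within 100 bp of 10.42% of summits in Etv2_OE embryo 7, 11.1% in embryo 9 and 11.8% in embryo 10. The control lists held it at 11.5% of summits in embryo 1 and at 9.27%, 9.42% and 9.56% in embryos 2, 3 and 4. Control embryo 1 thus lay between Etv2_OE embryos 9 and 10, and the other 3 controls lay below all Etv2_OE lists. The means were 11.1% ± 0.678 (SD, n = 3) and 9.93% ± 1.03 (SD, n = 4), a difference of 1.17 percentage points that was within the spread of the controls (exact permutation test, two-sided, p = 0.171; Benjamini-Hochberg adjusted over 21 words, 0.45). Without control embryo 1 the difference was 1.68 points and the groups did not overlap (exact permutation p = 0.1, the smallest that 3 against 3 libraries allow, adjusted 0.3). That library was set apart partly by this same share, so the lack of overlap without it is not independent support. The same limit holds for the word values given without it below.

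**Figure D1:**
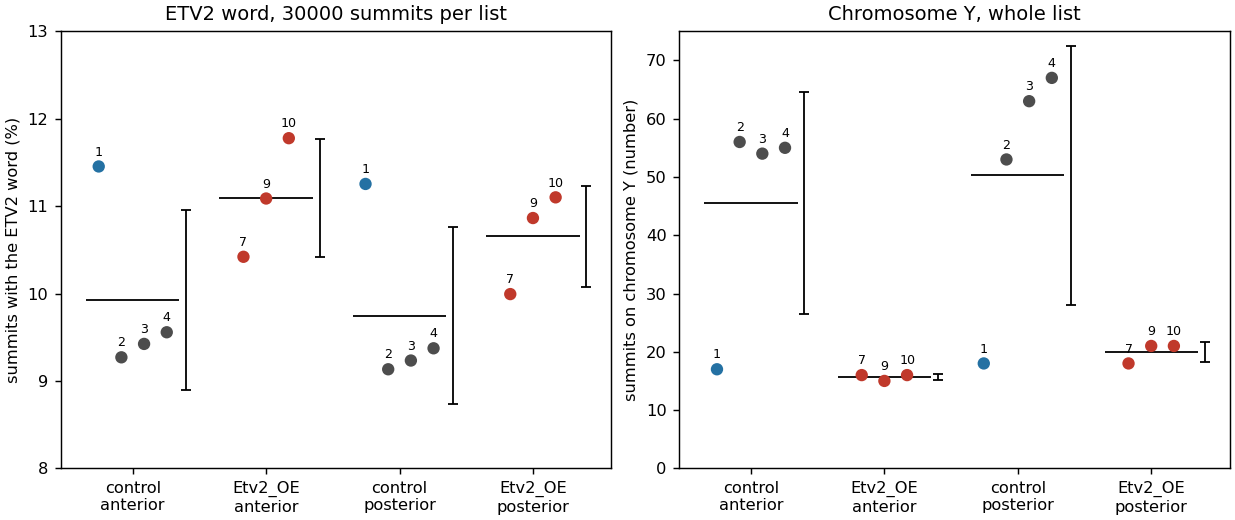
Left, percent of the 30000 highest-ranked summits with the ETV2 word within 100 bp; right, number of listed summits on chromosome Y. Each point is 1 library labelled by its embryo (grey, control embryos 2 to 4; blue, control embryo 1; red, Etv2_OE), lines are group means and bars 1 SD. Control embryo 1 sits with the Etv2_OE libraries in both plots, at 11.5% and 17 summits in the anterior library.

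Word-bearing summits were mostly away from promoters, and so was the difference. Among summits over 1 kb from any start, the word was held by 12.7%, 13.97% and 14.9% in Etv2_OE embryos 7, 9 and 10, by 14.4% in control embryo 1, and by 10.9%, 11.4% and 11.6% in control embryos 2, 3 and 4. At promoters the shares were close, 6.70% ± 0.151 (SD, n = 3) in Etv2_OE and 6.52% ± 0.219 (SD, n = 4) in controls, and the ranges overlapped. The word was also more frequent lower in the lists of every library: in Etv2_OE its share was 9.40% in ranks 1 to 10000, 11.3% in ranks 10001 to 20000 and 12.53% in ranks 20001 to 30000, and in controls 8.71%, 9.97% and 11.1%. The word was also concentrated at the summit itself. Within 50 bp of the summit the word occurred 1.51, 1.64 and 1.71 times as often as at 400 to 500 bp in Etv2_OE embryos 7, 9 and 10, and 1.73 times in control embryo 1, but 1.35, 1.37 and 1.39 times in control embryos 2, 3 and 4. The flanks were alike, from 0.992 to 1.05 words per 100 summits per 25-bp bin over the 7 libraries.

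**Figure D2:**
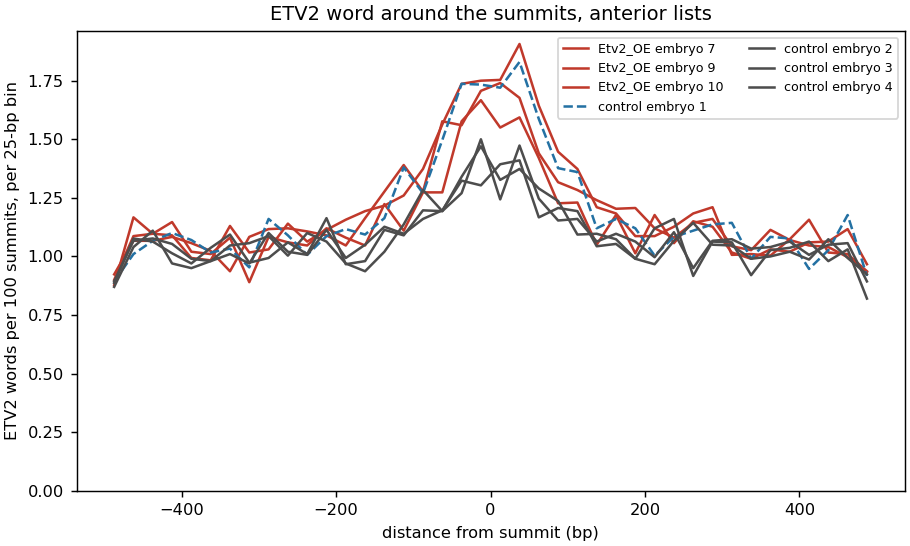
Number of ETV2 words per 100 summits in 25-bp bins against the distance from the summit, for the 30000 highest-ranked summits of each anterior library. Etv2_OE (red) and control embryo 1 (blue, dashed) rise higher at the centre than control embryos 2 to 4 (grey), and the 7 lines meet in the flanks.

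Other words were counted in the same windows. None of the 21 fixed words was higher in all Etv2_OE lists than in all controls (0% of the words), and the KLF-SP word GGGCGG, bound by factors of GC-rich promoters, was lower in all of them (4.76% of the words), at 29.9% ± 0.0889 (SD, n = 3) against 30.6% ± 0.175 (SD, n = 4; exact permutation p = 0.0571, adjusted 0.45). Without control embryo 1, 5 words were higher without overlap (23.8%) and 2 lower (9.52%), none with an adjusted p under 0.3. The forkhead-ETS word AACAGGAA, a composite site of endothelial enhancers, was held by 2.27%, 2.51% and 2.83% of summits in Etv2_OE embryos 7, 9 and 10, by 2.50% in control embryo 1 and by 1.91% to 1.94% in the others. The GATA word AGATAA, bound by GATA factors of blood and endothelium, was at 3.89% to 4.14% in Etv2_OE, 3.92% in control embryo 1 and 3.46% to 3.62% in the others. The remaining 3 words higher without control embryo 1 were the ETV2 word itself, its ETS core AGGAAGT and the TCF word CTTTGA, and the 2 lower ones were the KLF-SP word and the CTCF word. The promoter-type ETS word CCGGAAGT, bound by housekeeping ETS factors, hardly differed (2.77% ± 0.0818 against 2.79% ± 0.0206). The forkhead word TGTTTAC alone stood at 2.88% in both groups, and the GLI word TGGGTGGTC, bound by the effectors of Hedgehog signalling, at 0.149% and 0.152%.

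A scan of all 2080 words of 6 letters, with reverse complements joined, gave a description free of the fixed list. CAGGAA rose most in its mean share of summits, by 1.65 percentage points (2.22 without control embryo 1), followed by AGGAAA at 1.47 and ACAGGA at 1.31. Of the 20 words with the largest rise, 9 held GGAA or TTCC, as did 9 of 20 without control embryo 1 and 2.31% of all words, and none of the 20 words with the largest fall did. GC-rich words fell most, led by GCTCCC (fell by 0.887 percentage points). In all, 5.67% of the words were higher and 7.12% lower without overlap of the groups (14.8% and 12.6% without control embryo 1). These words overlap each other in sequence and are not independent.

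Region by region, few differences passed the test. Summits of the 7 lists fell into 56142 intervals of 200 bp, of which 41616 were listed in at least 2 libraries and tested with limma on rank scores. Of these, 20 were higher (0.0481%) and 14 lower (0.0336%) in Etv2_OE at a Benjamini-Hochberg adjusted p under 0.05, and 1154 (2.77%) and 1096 (2.63%) at an unadjusted p under 0.05. No interval was called in either direction once list length, which did not overlap between the groups, was a covariate, with 1238 higher and 1152 lower at an unadjusted p under 0.05 in limma. limma's trend and robust options left 0 higher and 5 lower (815 and 847 at an unadjusted p under 0.05), and leaving out Etv2_OE embryo 7, 9 or 10 gave 49, 34 and 49 higher and 26, 26 and 30 lower. The calls named below, Cmip, Ripk4, Stim2 and Cxcl12 included, are therefore those of the fit without a covariate. Promoters made up 12 of the 20 higher and 9 of the 14 lower intervals, against 35.1% of all intervals tested. The ETV2 word was in 2 of the 20 higher and 2 of the 14 lower intervals, near the 11.004% of all intervals that hold it. No interval nearest a gene of the endothelial, blood, mesenchyme, patterning, Hedgehog, FGF, ETS, ectoderm, muscle or neural crest lists passed the threshold. Without control embryo 1, 28 of 39413 intervals were higher (0.071%) and 37 lower (0.0939%), among them 14 of the 20 and 13 of the 14. The unadjusted shares were then 2.71% and 2.95%. With whole lists, 30 of 58301 were higher (0.0515%) and 64 lower (0.11%).

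Most called intervals lay within 1 kb of a summit in every library of the other group. Whether a summit moved or separate neighbouring summits differed was not tested. The strongest lost interval, chr9:13827281-13827480 in mm10, 274 bp from the start of Cep57, a centrosomal gene, was at ranks 762, 1651, 605 and 534 in control embryos 1 to 4 and not listed within 200 bp in any Etv2_OE library. All 3 Etv2_OE libraries nevertheless had a summit 218 to 219 bp from its centre. The difference in mean rank score was -0.97 ± 0.0374 (SE; limma adjusted p = 0.00192). Likewise, the strongest gained interval, chr14:55560304-55560503 at the start of A730061H03Rik and Dcaf11, was at ranks 4552, 6842 and 3402 in Etv2_OE and absent from controls (0.84 ± 0.0438, limma adjusted p = 0.0028), and its neighbour at Dcaf11 was at ranks 5291 to 6857 in controls and absent from Etv2_OE (-0.79 ± 0.0384, limma adjusted p = 0.00278). In 3 places a higher and a lower interval lay within 2 kb of each other. The other named gained intervals, by size, lay nearest Zbtb6 (zinc-finger gene), Nudt5 (a nucleotide hydrolase), Tgfb3 (a TGF-beta ligand, though the interval is in an intron of Ttll5, 118479 bp from the start of Tgfb3), Ppdpf, Sirt4 (a mitochondrial sirtuin), Zfp882 and Glmn, with differences from 0.66 to 0.78. The other named lost ones lay nearest Birc6 (an inhibitor of apoptosis), Cpeb2 (an mRNA-binding translational regulator), Tbc1d4, Gorasp2 (a Golgi protein), Fam19a2 and Tmem87b, from -0.75 to -0.93. For all 16 named intervals, every library of the other group had a summit 203 to 711 bp from the centre. Among all calls, every control library had a summit within 1 kb of 17 of the 20 higher intervals, and every Etv2_OE library within 1 kb of 11 of the 14 lower ones. With intervals of 1 kb, limma called 0 of 37182 in either direction (1075 higher and 1086 lower at an unadjusted p under 0.05, 2.89% and 2.92%).

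**Figure D3:**
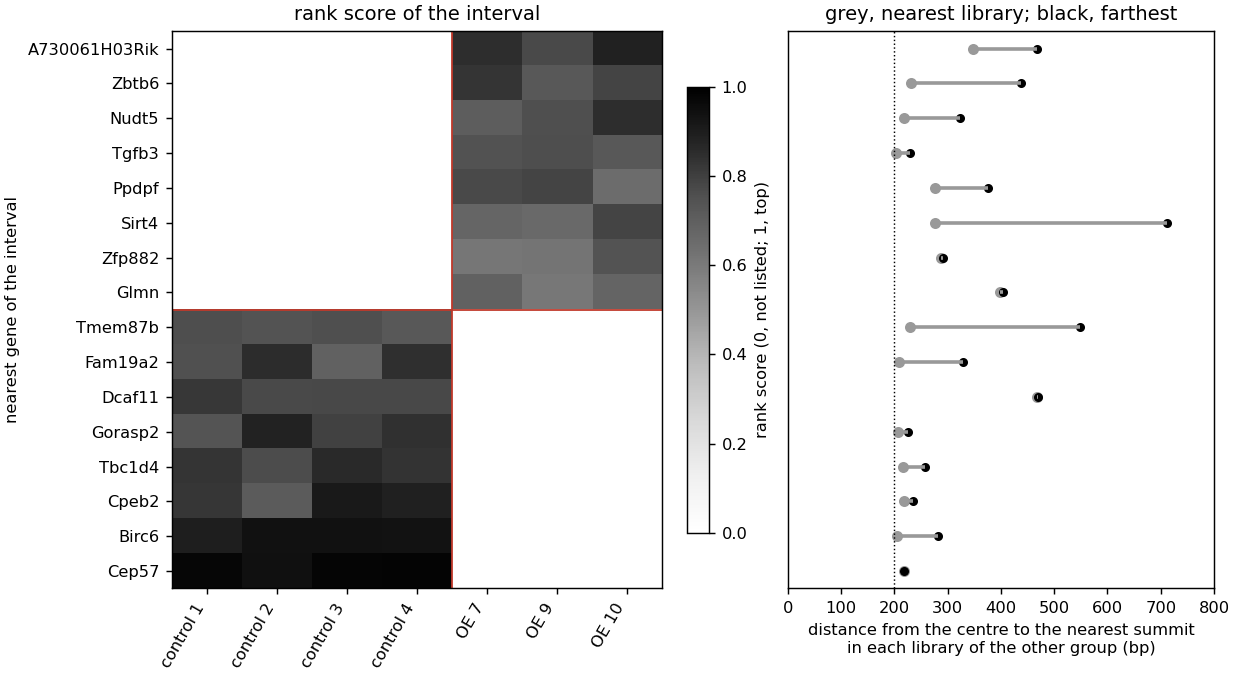
Left, rank score of the 16 named intervals (rows, by nearest gene) in each anterior library. Right, distance in bp from the centre of each interval to the nearest summit in the libraries of the other group, with the nearest library in grey, the farthest in black and the 200-bp limit dotted. Each interval is listed in 1 group alone, yet each library of the other group has a summit 203 to 711 bp away.

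The called intervals that stood apart were few. The Cmip region, 32301 bp from the start of Cmip, was at ranks 13735, 13931 and 17375 in Etv2_OE embryos 7, 9 and 10, with no control summit within 24934 bp. Its difference was 0.50 ± 0.0462 (SE; limma adjusted p = 0.0256). The Ripk4 region, near a kinase gene of epidermal differentiation, was at ranks 10788, 12762, 9492 and 15902 in control embryos 1 to 4, with no Etv2_OE summit within 14976 bp (-0.59 ± 0.0599, limma adjusted p = 0.0399). Both missed the threshold without control embryo 1 (limma adjusted p = 0.0675 and 0.0855). Neither held its pattern in the posterior limb bud, where the Cmip region was listed in 1 of 3 Etv2_OE and 3 of 4 control libraries and the Ripk4 region in 3 of 3 and 4 of 4. The lower calls with the word lay nearest Smim19 (-0.56 ± 0.0523, limma adjusted p = 0.026) and Mid1 (-0.65 ± 0.062, limma adjusted p = 0.0273). Of the higher calls with the word, the Stim2 region lay 748655 bp from the start of this calcium-sensor gene. It was at ranks 10895, 13019 and 7207 in Etv2_OE (0.65 ± 0.0548, limma adjusted p = 0.0171), and each control had a summit 206 to 262 bp away. The Cxcl12 region, 311272 bp from the start of the gene for a chemokine of vessel and progenitor homing, was at ranks 17000, 15062 and 13255 in Etv2_OE, at rank 31416 in control embryo 2 and not listed in the other controls (0.50 ± 0.0447, limma adjusted p = 0.0239). When control embryo 1 was left out, the adjusted p was 0.0481 for Stim2 and 0.0623 for Cxcl12 (limma). In the posterior limb bud the Stim2 region was listed in 2 of 3 Etv2_OE libraries and 2 of 4 controls (limma adjusted p = 0.949) and the Cxcl12 region in 2 of 3 and 0 of 4 (limma adjusted p = 0.811).

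Across all tested intervals the word went with small shifts. The median difference in rank score was 0.022 for the 4431 intervals with the ETV2 word and -0.0014 for every interval, and 58.5% against 49.3% were positive. It was 0.05 for the 326 intervals with 2 or more words, of which 68.1% were positive, and 0.04 for the 966 with the forkhead-ETS word. At an unadjusted p under 0.05, 3.95% of word-bearing intervals were higher and 1.83% lower, against 2.77% and 2.63% of all. Word-bearing intervals over 1 kb from a start had a median of 0.03 (3485 intervals) and those at promoters 0.003 (946 intervals). Without control embryo 1 the median was 0.033 for the ETV2 word, with 4.90% higher and 2.00% lower, and 0.076 for 2 or more words. The posterior libraries of the same embryos gave 0.011 for the word and 0.037 for 2 or more, beside -0.0045 for every interval, with 4.34% of word-bearing intervals higher and 2.17% lower against 2.83% and 3.49% of all.

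Presence alone gave larger sets. Listed in all 3 Etv2_OE libraries and in no control were 154 intervals (0.274% of the 56142), and listed in all 4 controls and in no Etv2_OE library were 179 (0.319%). The gained set held the ETV2 word in 27 intervals (17.5%) and the lost set in 17 (9.497%), beside 11.004% of all intervals. Promoters made up 29.2% of the gained and 27.9% of the lost set, introns 25.3% and 27.9%, and intergenic positions 43.5% and 40.8%, beside 30.2%, 29.1% and 38.7% of all intervals. The forkhead-ETS word was in 7 gained intervals (4.55%) and 1 lost (0.559%), beside 2.45% of all. The RUNX word TGTGGTT was in 12 (7.79%) and 7 (3.91%), beside 3.88%, and the CTCF word in 18 (11.7%) and 30 (16.8%), beside 12.2%. The gained intervals lay nearest 150 genes and the lost ones nearest 176, with at most 2 to a gene. Nearest Btbd3, Dlg2, Dnm3 and Rtl9 were 2 gained each, and nearest Dtwd2, Galnt3 and Wdr11 2 lost each.

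Leaving out control embryo 1 changed these sets more than leaving out any other control. Gained intervals then numbered 345 (0.615%), with the ETV2 word in 87 (25.2%), and lost ones 394 (0.702%), with the word in 31 (7.87%). Control embryo 1 itself listed 55.4% of those 345. Without control embryo 2, 3 or 4 the gained sets numbered 278, 252 and 257 (0.495%, 0.449% and 0.458%), the word was in 12.9%, 14.7% and 13.2%, and the library left out listed 44.6%, 38.9% and 40.1%. The lost sets without these controls numbered 359, 350 and 327 (0.639%, 0.623% and 0.582%). Without Etv2_OE embryo 7, 9 or 10 the gained sets numbered 674, 517 and 542 (1.2%, 0.921% and 0.965%), with the word in 20.3%, 16.4% and 15.9%, and the lost sets 489, 357 and 426 (0.871%, 0.636% and 0.759%). The forkhead-ETS word was in 8.99% of the 345 gained and 1.52% of the 394 lost intervals, beside 2.45% of all. Of the 394 lost intervals, 8 were on chromosome Y.

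**Figure D4:**
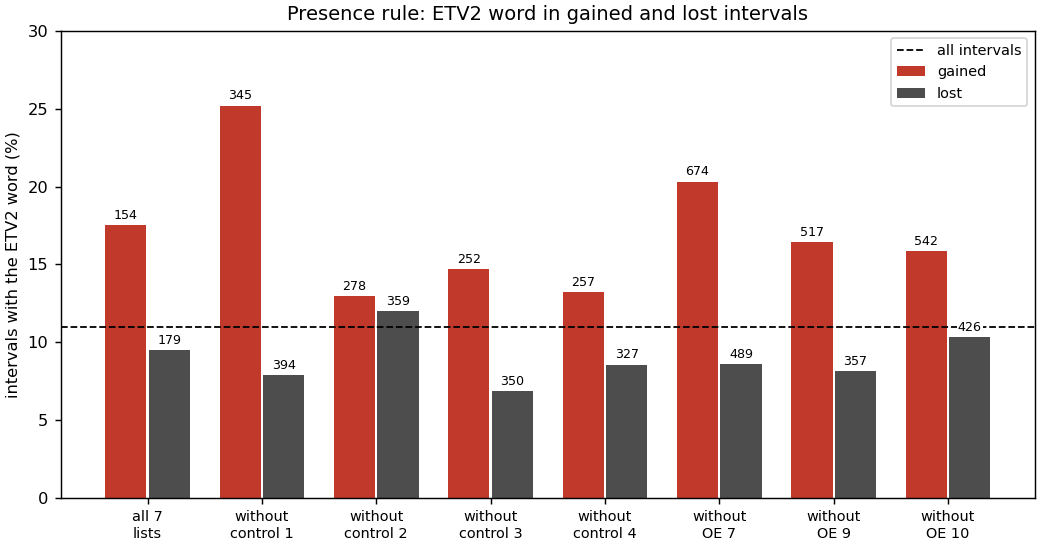
Percent of intervals with the ETV2 word among those gained (red) and lost (grey) by presence in all libraries of 1 group and in none of the other, with all 7 libraries and with each left out. Numbers above the bars are intervals and the dashed line is the 11.004% of all intervals. The gained share is highest, 25.2%, without control embryo 1, and lowest, 12.9%, without control embryo 2.

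Few gained regions lacked any control summit nearby. With every deposited summit considered, 11 of the 154 gained intervals had no control summit within 1 kb (0.0196% of all intervals), against 61 of the 179 lost ones with no Etv2_OE summit within 1 kb (0.109%), beside the longer control lists. None of the 11 was at a promoter. The ETV2 word was in 2 of them (18.2%) and in 3 of the 61 lost (4.92%), beside 11.004% of all intervals. Besides Cmip, they lay nearest Vps8, Sh3bgrl, Kcnc2, Pcmtd1, Snhg11, Efnb2, Src, Ptprz1, Idh2 and Il31ra, named after their values were seen. The Sh3bgrl region was at ranks 21866, 14155 and 12534 in Etv2_OE (difference 0.46, limma adjusted p = 0.25), and in no library of the posterior limb bud. The Src region, 17343 bp from the start of this tyrosine kinase gene, was at ranks 28598, 22013 and 16892 (0.25, limma adjusted p = 0.894). With only the 30000 highest-ranked summits of each list considered, 64 gained (0.114%) and 114 lost (0.203%) stood apart, with the ETV2 word in 17 (26.6%) and 7 (6.14%). Leaving out control embryo 1 gave 56 gained (0.0997%) and 160 lost (0.285%) against whole lists, with the word in 23 (41.1%) and 9 (5.62%), and 217 (0.387%) and 267 (0.476%) against the 30000 highest-ranked, with the word in 72 (33.2%) and 15 (5.62%).

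The posterior libraries came from the same embryos and gave a partial view of the same intervals. Of the 154 gained intervals, posterior Etv2_OE libraries listed 38.96%, 35.7% and 42.2% (embryos 7, 9 and 10), and posterior controls 38.96%, 35.7%, 35.7% and 28.6% (embryos 1 to 4). Of the 179 lost ones, they listed 44.7% to 51.4% and 52.0% to 59.8%, beside 48.9% to 49.6% and 49.9% to 51.1% of all 56142 intervals, where the groups did not overlap either. Of the 345 gained without control embryo 1, the posterior library of that embryo listed 47.2%, the other posterior controls 32.5% to 35.1% and Etv2_OE 38.8% to 49.6%. None of the 34 called intervals passed the threshold in the posterior limma test, which called 24 of 36445 higher (0.0659%) and 15 lower (0.0412%), and 9 of 17 higher and 10 of 13 lower ones that could be tested there had the same sign. The effect itself differed between anterior and posterior at 31 of 54033 intervals (0.0574%; limma interaction, adjusted p under 0.05), being more positive in the posterior limb bud at 17 (0.0315%) and more negative at 14 (0.0259%).

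The genes of ETV2's known roles were examined next. Upstream of Tal1, a regulator of blood and endothelial fate, the region 3675 bp from the start held the ETV2 word at 2 places, as shown above. It was at ranks 20490, 21014 and 16778 in Etv2_OE embryos 7, 9 and 10, and at 22673, 33624, 41797 and 34018 in control embryos 1 to 4 when whole lists were read. The rank of control embryo 3 lies past the end of every Etv2_OE list, so ranks beyond 30000 are not compared. The difference in rank score was 0.29 ± 0.0793 (SE), with an unadjusted p of 0.00867 and a limma adjusted p of 0.717. In the posterior limb bud it was listed by 2 of 3 Etv2_OE and 4 of 4 control libraries. This region and the Dusp6 region were chosen after their values were seen. Inside the gene, an exonic interval went the other way, 3979 bp from the nearest annotated Tal1 start, which is not the start used above. It was at ranks 35014, 20214, 14121 and 26173 in control embryos 1 to 4 and unlisted in Etv2_OE (-0.25 ± 0.124, limma adjusted p = 0.911). Within 500 bp of any annotated Tal1 start, a summit was listed only in Etv2_OE embryo 7, at rank 33793. At the start of Kdr, ranks of 30949, 16945 and 12785 in Etv2_OE overlapped those of 26177, 18016, 16697 and 25716 in controls. Etv2 itself had no summit at its start in any library, and an exonic summit was listed in Etv2_OE embryos 9 and 10 (ranks 29888 and 28563) and in control embryos 1 and 4 (ranks 18931 and 23404). A summit there is no check of the transgene, whose site of insertion is not in these files. Hoxb6, the gene whose regulatory sequence drives the Cre, was listed at its start in Etv2_OE embryos 7 and 10 (ranks 28379 and 14166) and in control embryos 2, 3 and 4 (ranks 15043, 14330 and 19982).

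The ZRS, in an intron of Lmbr1, was listed in all 3 Etv2_OE libraries, at ranks 21259, 19948 and 23619 for embryos 7, 9 and 10. Among controls it was listed in embryo 1 at rank 25042 and in embryo 2 at rank 37914, and not in embryos 3 and 4. The comparison of 3 of 3 with 2 of 4 libraries did not reach significance (Fisher's exact test, two-sided, p = 0.429), nor did 3 of 3 with 1 of 4 among the 30000 highest-ranked summits (p = 0.143, Fisher's exact test). Whole lists without control embryo 1 gave 3 of 3 against 1 of 3 (p = 0.4, Fisher's exact test). Summits within the ZRS lay at different places: those of Etv2_OE embryos 7 and 9 shared an interval and that of embryo 10 lay in another. The shared interval, unlisted in every control, differed by 0.21 ± 0.0845 (limma adjusted p = 0.894). All 7 posterior libraries listed a summit in the ZRS. The start of Shh had no summit in any anterior library, while that of Lmbr1 had a summit in all 7, at ranks 5045 to 8029 in Etv2_OE and 4519 to 12376 in controls.

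**Figure D5:**
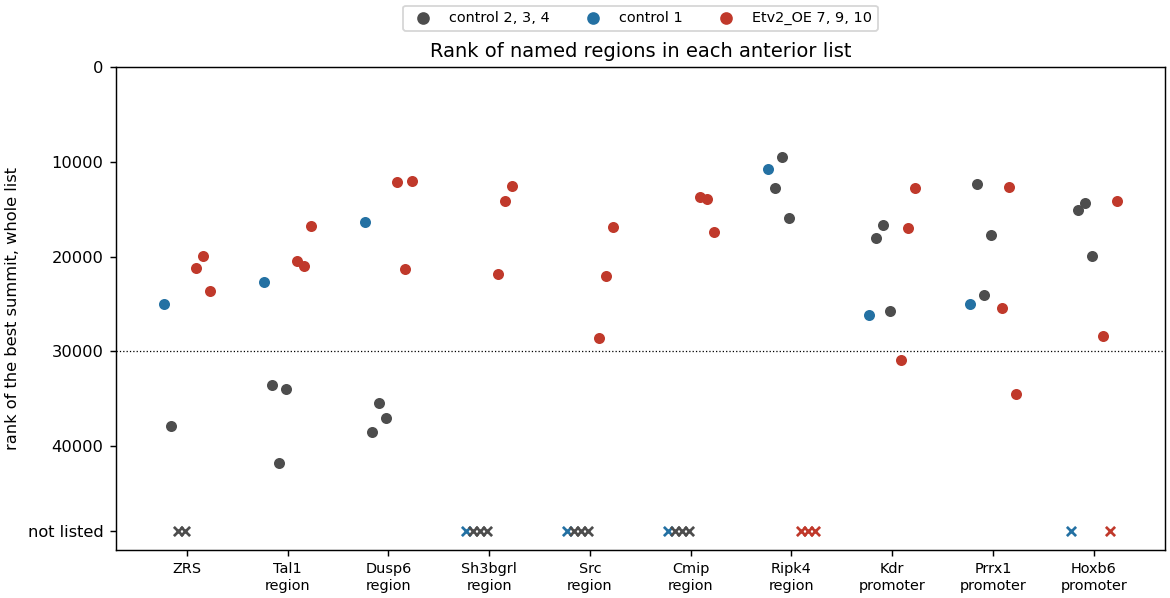
Rank of the best summit in the whole list of each anterior library (vertical axis, strongest at the top). Crosses mark regions not listed and the dotted line rank 30000. Shown are the ZRS, the Tal1, Dusp6, Sh3bgrl, Src, Cmip and Ripk4 regions, and 3 gene starts. Points are control embryos 2 to 4 (grey), control embryo 1 (blue) and Etv2_OE (red). At the ZRS the Etv2_OE libraries and control embryo 1 lie above rank 30000, and at the Kdr and Prrx1 starts the groups mix. The Tal1 and Dusp6 regions show the pattern of the ZRS because they were chosen by it.

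Among genes of limb signalling, no interval passed the adjusted threshold. The Dusp6 region, 33693 bp from the start of this FGF-induced phosphatase gene, was at ranks 12117, 21274 and 12020 in Etv2_OE, at 16361 in control embryo 1 and at 38515, 35503 and 37028 in control embryos 2, 3 and 4. Its difference was 0.38 ± 0.143 (limma adjusted p = 0.894). Of 116 intervals nearest FGF pathway genes, 6 were higher (5.17%) and 1 lower (0.862%) at an unadjusted p under 0.05, beside 2.77% and 2.63% of all intervals, with a median difference of 0.012 (56.9% positive). The Hedgehog pathway had 3 higher and 3 lower of 107 (median -0.013), and the anterior-posterior patterning genes 7 higher and 5 lower of 211 (median -0.0033). Mesenchyme genes had 6 and 6 of 223 (median -0.012), endothelial genes 6 and 4 of 153 (median -0.0064), blood genes 2 and 1 of 64 (median -0.0092) and ETS factors 4 and 2 of 105 (median 0.0029). Ectoderm had 1 and 0 of 34, muscle progenitors 1 and 0 of 30, and neural crest and glia 0 and 0 of 17. Without control embryo 1 the medians were 0.021 for the FGF pathway, -0.026 for the Hedgehog pathway, -0.0016 for patterning, -0.0012 for mesenchyme, -0.0098 for endothelium, -0.0066 for blood and -0.0016 for ETS factors, the last with its sign turned. By presence, the FGF pathway had 1 gained interval, near Dusp6 and apart from the region just described, and 1 lost, near Fgf9, of 162 (0.617% each, beside 0.274% and 0.319% of all intervals). Patterning had 1 gained of 313, near Sall1, mesenchyme 2 lost of 297, near Lhx2 and Twist1, and Hedgehog 1 lost of 150, near Disp1, while the ETS list had none of 141. In whole lists, control embryos 1 and 4 listed the gained Dusp6 interval at ranks 31425 and 34056. Etv2_OE embryo 7 listed the lost Fgf9 interval at 30572, and embryos 9 and 10 the lost Disp1 interval at 32531 and 32275. The Sall1, Lhx2 and Twist1 intervals were unlisted in the other group there too, by the limit of 200 bp. The nearest summit of the other group was 218 bp from the Sall1 centre, 17948 bp from Lhx2 and 2261 bp from Twist1. With control embryo 1 left out, the ETS list had 3 gained (2.13%, beside 0.615% of all), near Elf3, Elk3 and Ets2, and 0 lost. In whole lists, control embryo 3 listed the Elk3, Ets2 and Elf3 intervals at ranks 30061, 38513 and 39175, and control embryo 4 the Ets2 interval at 33805. Control embryo 1, left out here, listed the Elk3, Ets2 and Elf3 intervals at ranks 25757, 28501 and 18540. The endothelial list had 2 gained and 2 lost of 233 (0.858% each), the FGF pathway 2 and 2 (1.23% each) and blood genes 1 and 1 (1.18% each). Patterning had 3 gained (0.958%) and 1 lost (0.319%), mesenchyme 2 (0.673%) and 4 (1.35%), and Hedgehog 0 and 1 (0.667%), beside 0.702% lost of all. For gene starts in whole lists, Cdh1, the epithelial cadherin gene, was listed in the 3 Etv2_OE libraries alone (ranks 29683, 32270 and 30230), and Bmp4, a growth factor gene of the limb margin, in the 4 controls alone (ranks 37987, 40337, 33138 and 42193). The Etv2_OE lists end near or before most of these Bmp4 ranks, so its absence from them cannot be told apart from list length. The Cdh1 ranks also lie near or past 30000, beyond which ranks are not compared, and the list of Etv2_OE embryo 9 ends at 32666. Starts listed in 1 group alone were 6 gained (0.0274%) and 62 lost (0.283%) of 21911 genes in whole lists, which are longer in controls, or 10 (0.0456%) and 23 (0.105%) among the 30000 highest-ranked summits, with no gene of the lists among these. Tbx15, a mesenchymal T-box gene named after its values were seen, was listed at its start in all 3 Etv2_OE libraries (ranks 10683, 12790 and 12537) and, among controls, in embryo 2 (rank 22301). In the posterior limb bud it was listed in all 4 controls and in 2 of 3 Etv2_OE libraries.

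The genomic makeup of the lists depended on how far down they were read. Promoters made up 38.7% ± 0.371 (SD, n = 3) of the 30000 highest-ranked summits in Etv2_OE and 38.9% ± 0.28 (SD, n = 4) in controls (exact permutation p = 0.514). Introns made up 24.8% and 24.9%, exons 1.67% and 1.76%, and intergenic positions 34.9% and 34.5%, with overlapping ranges. Without control embryo 1 the intergenic shares of 34.9% ± 0.0643 and 34.4% ± 0.0837 (SD, n = 3 each) did not overlap (exact permutation p = 0.1). Among the 15000 highest-ranked summits promoters were 54.2% ± 0.215 in Etv2_OE (SD, n = 3) and 55.7% ± 0.904 in controls (SD, n = 4; exact permutation p = 0.0571). In whole lists the order was the other way, at 35.3% ± 1.79 (SD, n = 3) and 31.0% ± 0.902 (SD, n = 4; exact permutation p = 0.0571), beside the shorter Etv2_OE lists.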

How the data were processed

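ATAC-seq summits of 7 anterior hindlimb libraries were used, with 7 posterior libraries of the same embryos for comparison. Per the labels and the study's methods, the authors aligned 75-bp paired-end reads to mm10 with Bowtie2 2.2.4, removed duplicates, shifted cut sites and called summits per library with MACS2, whose version and options the sources used here do not give. The deposited lists give a single number per summit, a -log10 q value that rises with depth, so only ranks were used. At rank 30000 this value was 4.42, 2.99 and 4.27 in Etv2_OE embryos 7, 9 and 10. In control embryos 1 to 4 it was 4.89, 5.06, 5.66 and 6.65, so this cut let in summits of lower value in Etv2_OE. Mitochondrial summits (3 to 5 per list) were left out. The 30000 highest-ranked summits of each list were joined into 200-bp intervals. For tests and presence sets, a library listed an interval with a summit among these within 200 bp of its centre. Ranks past 30000 are from whole lists. Rank scores of intervals listed in at least 2 libraries were fitted with limma 3.58.1 in R 4.3.3, with no covariate (moderated test, Benjamini-Hochberg adjustment), and values per library were compared by exact permutation. Replicates are separate embryos per the labels. Genes were taken from GENCODE M21 (promoter within 1 kb of a protein-coding start), sequences from RefSeq GRCm38.p6. Scripts were tested on simulated data. Named regions were the 8 higher and 8 lower calls with the largest difference (under 50% masked), plus Etv2, Shh with the ZRS, Hoxb6, Kdr, Tal1 and Prrx1; others were named after their values were seen. Comparison, words, gene lists and rules were chosen with earlier results of these data known. Alternatives covered list depth, interval width, filters, covariates, the block and each library left out.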

Additional observations from a re-analysis of the deposited data

Results flagged for a closer look

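Several values of the library labelled WT_Control embryo 1 lay far from those of the other 3 anterior controls. It had 17 summits on chromosome Y (54 to 56 in the others). Its share of summits with the ETV2 word was 11.45% (9.27% to 9.56%), with the ETS core 6.66% (5.62% to 5.78%), with the forkhead-ETS word 2.50% (1.91% to 1.94%), with the SOX word ACAATG 6.60% (6.89% to 6.91%) and with the CTCF word 11.8% (12.49% to 12.6%). The posterior library of the same embryo had the ETV2 word at 11.25% of summits, against 9.13% to 9.37% in the other posterior controls. These are 7 of 31 sets of 4 control values examined, of which chance would single out about 1 in 20, and the sets share libraries. The ETV2, ETS core and forkhead-ETS words also overlap in sequence, and in the posterior controls the ETV2 word was the only word examined. The 7 are therefore not independent. Whether the label, the genotype or the sex of this embryo differs was not tested.

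The Etv2_OE effect differed between anterior and posterior limb bud at 31 of 54033 intervals by the limma interaction test (more positive in posterior at 17 and more negative at 14, adjusted p under 0.05), with an estimated embryo correlation of 0.0102.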

How the results depend on the processing

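The 20 higher and 14 lower intervals became 4 and 7 with 15000 summits per list, 34 and 23 with no filter on libraries, 10 and 6 with 500-bp intervals, 0 and 0 with list length as a covariate (1238 and 1152 at an unadjusted p under 0.05), 0 and 5 with limma's trend and robust options, and 154 and 179 by presence. Whole lists gave 64 lower. Leaving out each library in turn gave 15 to 49 higher and 19 to 37 lower; the count of higher intervals moved past 1.5 times without Etv2_OE embryo 7 (49), 9 (34) or 10 (49), and of lower ones without those (26, 26 and 30) or control embryo 1 (37) or 3 (22). Chosen after seeing the data, 1-kb intervals gave 0 and 0, or 4 and 2 without control embryo 1, and autosomes without that embryo gave 27 lower. With the replicate number of the titles as a block, limma called 0 higher and 0 lower (769 and 872 at an unadjusted p under 0.05); deviations of the 3 same-numbered pairs correlated at -0.0524, -0.0059 and 0.0069, the embryo numbers differ, and the numbers therefore do not pair these libraries. Across alternatives the 16 named intervals kept their direction in 274 of 274 values and stayed past the threshold in 213; all 16 were lost under the block and under the length covariate. The promoter share reversed in whole lists (4.33 points higher in Etv2_OE); leaving out each library gave -0.311 to 0.0208 points, positive without Etv2_OE embryo 7. The ETV2 word share stayed higher in Etv2_OE throughout (0.828 to 1.78 points for the full word, 0.538 for its core), at exact permutation p from 0.1 to 0.4. The anterior-posterior interaction called 6 intervals with 15000 summits per list. The ZRS and list-length comparisons kept their direction under each alternative. The number of reads is unknown, so an unlisted region is not shown to be closed.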
